A study of Mus musculus with 9 samples.

Results

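Cytosolic ribosomal proteins (RPs) are the proteins of the large and small subunits of the ribosomes that translate nuclear-encoded mRNAs. Their genes were taken from the count table by symbol, as names beginning with Rpl or Rps followed by a number, by p and a number (the stalk proteins) or by a (Rpsa). Ribosomal S6 kinases, Rps19bp1 and named pseudogenes were left out. This gave 90 of the 27179 genes in the table, 55 for the large and 35 for the small subunit. Of the 90, 77 were the core genes and 13 were copies or variants of one of them, such as Rpl7l1, Rpl22l1 and Rps27l. Enough counts for a test were present for 87 genes (52 large and 35 small). Rpl10l had no count in any library, and Rpl3l and Rpl39 had 20 and 22 counts in the 9 libraries together. Rpl39 alone of these is a core gene, and whether the handling of reads that fit several places bears on its count was not tested.

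The RNAs came from RNA immunoprecipitation sequencing (RIP-seq) of splenic B cells from wild-type mice, purified as CD43- cells. In all groups the cells had been stimulated for 72 h. The labels give the stimuli as CD40L (5 ug/mL), anti-IgM antibody (10 ug/mL) and IL-4 (20 ng/mL), and the study's methods name an anti-CD40 antibody in place of the ligand. The 3 groups, with 3 libraries each (A, B and C), were RNA precipitated by an antibody against phosphorylated UPF1 (p-UPF1), RNA precipitated by normal rabbit IgG, and input RNA from a part of the lysate. The study calls the data points of its graphs independent biological replicates in general, but which mice or cultures gave these libraries was not given, so P values measure the spread between these libraries only, which may be technical.

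Each ribosome carries 1 set of RPs, and the mRNAs of these proteins are among the most abundant of a dividing cell. Most are short and begin with a 5′ terminal oligopyrimidine (TOP) tract, a C followed by a run of C and T (U in the RNA), through which their translation is coordinated with cell growth. UPF1 is a helicase without which nonsense-mediated decay (NMD) of mRNAs does not run, and once phosphorylated it draws decay enzymes to the mRNA it sits on. In NMD, a stop codon far from the end of the mRNA, or followed by an exon junction, can set off decay. Several RP genes are known to hold back their own expression by splicing into forms that NMD removes. The comparisons ask how much RP mRNA was recovered with p-UPF1 relative to the nonspecific precipitate and to the lysate.

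The first bases of RP mRNAs are shown for members with long tracts and for members at both ends of the recovery described below. RefSeq start sites of GRCm38.p6 were at hand for 68 of the 90 genes, and each line gives 30 bases on the strand of the gene, 10 before the annotated start and 20 from the start on. Capitals mark the longest run of C and T in the window. Rpl15, Rpl35, Rps10, Rps6 and Rps18 are the core genes with the longest C and T runs beginning with a C at the annotated start itself. Rps21 and Rps28 are the members recovered least with p-UPF1 relative to IgG, and Rpl7l1, Rpl22, Rpl10a and Rpl12 are among those recovered most.
Rpl15, chr14:18270967-18270996 (-): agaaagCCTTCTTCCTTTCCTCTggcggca
Rpl35, chr2:39005112-39005141 (-): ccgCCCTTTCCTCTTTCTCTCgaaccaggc
Rps10, chr17:27635225-27635254 (-): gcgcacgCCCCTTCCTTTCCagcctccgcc
Rps6, chr4:86857348-86857377 (-): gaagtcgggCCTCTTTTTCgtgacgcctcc
Rps18, chr17:33955646-33955675 (-): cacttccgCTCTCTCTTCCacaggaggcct
Rps21 upstream start, chr2:180257369-180257398 (+): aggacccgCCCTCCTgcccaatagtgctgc
Rps28, chr17:33824543-33824572 (-): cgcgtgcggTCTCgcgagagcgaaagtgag
Rpl7l1, chr17:46782637-46782666 (-): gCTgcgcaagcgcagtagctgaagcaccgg
Rpl22 upstream start, chr4:152324426-152324455 (+): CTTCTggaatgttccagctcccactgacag
Rpl10a upstream start, chr17:28328461-28328490 (+): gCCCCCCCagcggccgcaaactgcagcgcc
Rpl12, chr2:32961702-32961731 (+): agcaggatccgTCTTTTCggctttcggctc

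A C at an annotated start followed by at least 4 bases of C or T was found in 15 of the 65 tested RP genes with a start (23.1%) and in 3.08% of 9998 tested genes with one. A run of at least 8 bases of C or T within 30 bases of an annotated start was found in 36 of the 65 (55.4%) and in 25.6% of the tested genes. Annotated starts can miss the real one by some bases, so a missing tract says only that the letters were not in the window. The 15 genes with a tract at the start had a median log2 fold change of p-UPF1 over IgG of -3.06, and the other 50 one of -2.83. For the run of at least 8 bases the order was the opposite, with -2.76 for the 36 genes and -3.03 for the others. Rpl22, Rpl7l1 and Rps28 had no tract at the start by the first definition, yet lay at opposite ends of the recovery.

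Total counts ranged from 17372510 to 24945286 per library. Pearson's r of log2 CPM (counts scaled to a common library size with TMM factors) over all tested genes was 0.999 within input, 0.994 to 0.996 within IgG and 0.998 to 0.999 within p-UPF1. The B cell label was borne out by all 8 defining B cell mRNAs, which stood between 49.6 and 1229 CPM in input, while 5 T cell mRNAs summed to 0.737 CPM and Hba-a1 and Hbb-bs were at 0. Of 4 myeloid mRNAs, Adgre1 stood at 131 CPM and the others under 1 CPM. The part of other cells in the RP values was not tested, and in bulk lysates fewer cells of a type and less RNA per cell cannot be told apart.

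RP mRNAs took 7.08%, 7.06% and 7.02% of the counts in input A, B and C. In IgG libraries they took 5.73%, 5.41% and 5.29%, and in p-UPF1 libraries 0.917%, 0.840% and 0.826%. The 3 groups did not overlap. The mean share was 7.05% ± 0.0302 in input, 5.47% ± 0.229 with IgG and 0.861% ± 0.0493 with p-UPF1 (SD, n = 3), so the share in p-UPF1 was 8.20-fold below that in input and 6.36-fold below that in IgG. The small subunit lost more of its share than the large one, 10.6-fold against 7.10-fold from input to p-UPF1. The large subunit value includes Rpl7l1, which rose from 0.0153% to 0.0752% of all counts and so makes this fold smaller. Counts on large subunit genes were 60.0% of all RP counts in input, 59.6% with IgG and 69.1% with p-UPF1. Without Rpl7l1, described below, these shares were 59.9%, 59.5% and 66.2%. In each library of p-UPF1 the large subunit share was above that in all libraries of the other groups, with or without Rpl7l1.

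**Figure D1:**
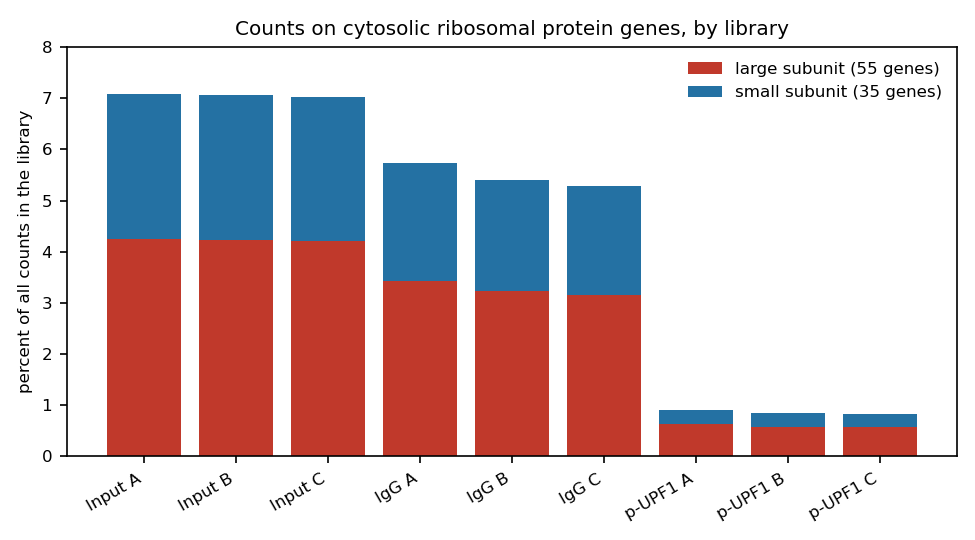
Share of all counts in each of the 9 libraries that fell on cytosolic RP genes, with large subunit genes in red and small subunit genes in blue. The bars stand near 7% in the 3 input libraries, between 5.29% and 5.73% with IgG and between 0.826% and 0.917% with p-UPF1. These are shares of each library, not amounts.

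Against IgG, 86 of the 87 tested RP genes were lower in p-UPF1 at an adjusted P under 0.05, where 42.2% of all 13129 tested genes were lower, on the TMM scale (edgeR's quasi-likelihood test, Benjamini-Hochberg adjustment). One gene, Rpl7l1, was higher, where 40.4% of tested genes were higher. A log2 fold change of -1 or less was reached by the same 86, where the background was 21.9%. All p-UPF1 libraries lay below all IgG libraries for 86 RP genes, against 41.5% of tested genes. The largest adjusted P among the 87 was 0.00102. The median log2 fold change was -2.85, with quartiles of -3.25 and -2.53, against a median of -0.03 over all tested genes. It was -2.77 over the 45 tested core genes of the large subunit and -3.03 over the 31 of the small subunit.

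A log2 fold change of 0 on the TMM scale stands for the typical mRNA of the library, so "lower" is meant relative to other mRNAs. When libraries were instead scaled to equal mitochondrially encoded mRNA, which fell further than RP mRNA, the median of all tested genes moved to 4.66 and that of RP genes to 1.85, and over IgG 84 RP genes then stood higher with p-UPF1 and 0 lower, where 99.4% of all tested genes were higher and 0.0305% lower. Relative to the median of all tested genes, RP genes stood at -2.81 under both scalings. Of the 87 tested genes, 6 copies averaged under 10 CPM (Rpl6l, Rpl32l, Rpl39l, Rps4l, Rps23rg1 and Rps27rt) and had their higher counts in the input and IgG libraries, and a filter on low counts favours such genes. Of the other 81, 80 were lower in p-UPF1.

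Against input, 86 RP genes were again lower in p-UPF1 and Rpl7l1 was higher, where 42.6% of tested genes were lower and 40.8% higher on the TMM scale by the same test. On a scale of equal mitochondrially encoded mRNA this turned too, with 0 lower and 84 higher over input, where 0.0533% of tested genes were lower and 99.4% higher. On the TMM scale, a log2 fold change of -2 or less was reached by 83, where the background was 9.67%. The 4 others were Rpl22, Rpl14, Rpl3 and Rpl7l1. The median was -3.35. The 2 contrasts share the p-UPF1 libraries, so they are not independent of each other. An mRNA was called bound when it was higher over IgG by a log2 fold change of at least 1 and over input by at least 2, each at an adjusted P under 0.05, the criterion of the study's methods. Rpl7l1 met it alone of the RP genes, where 6.25% of tested genes met it.

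**Figure D2:**
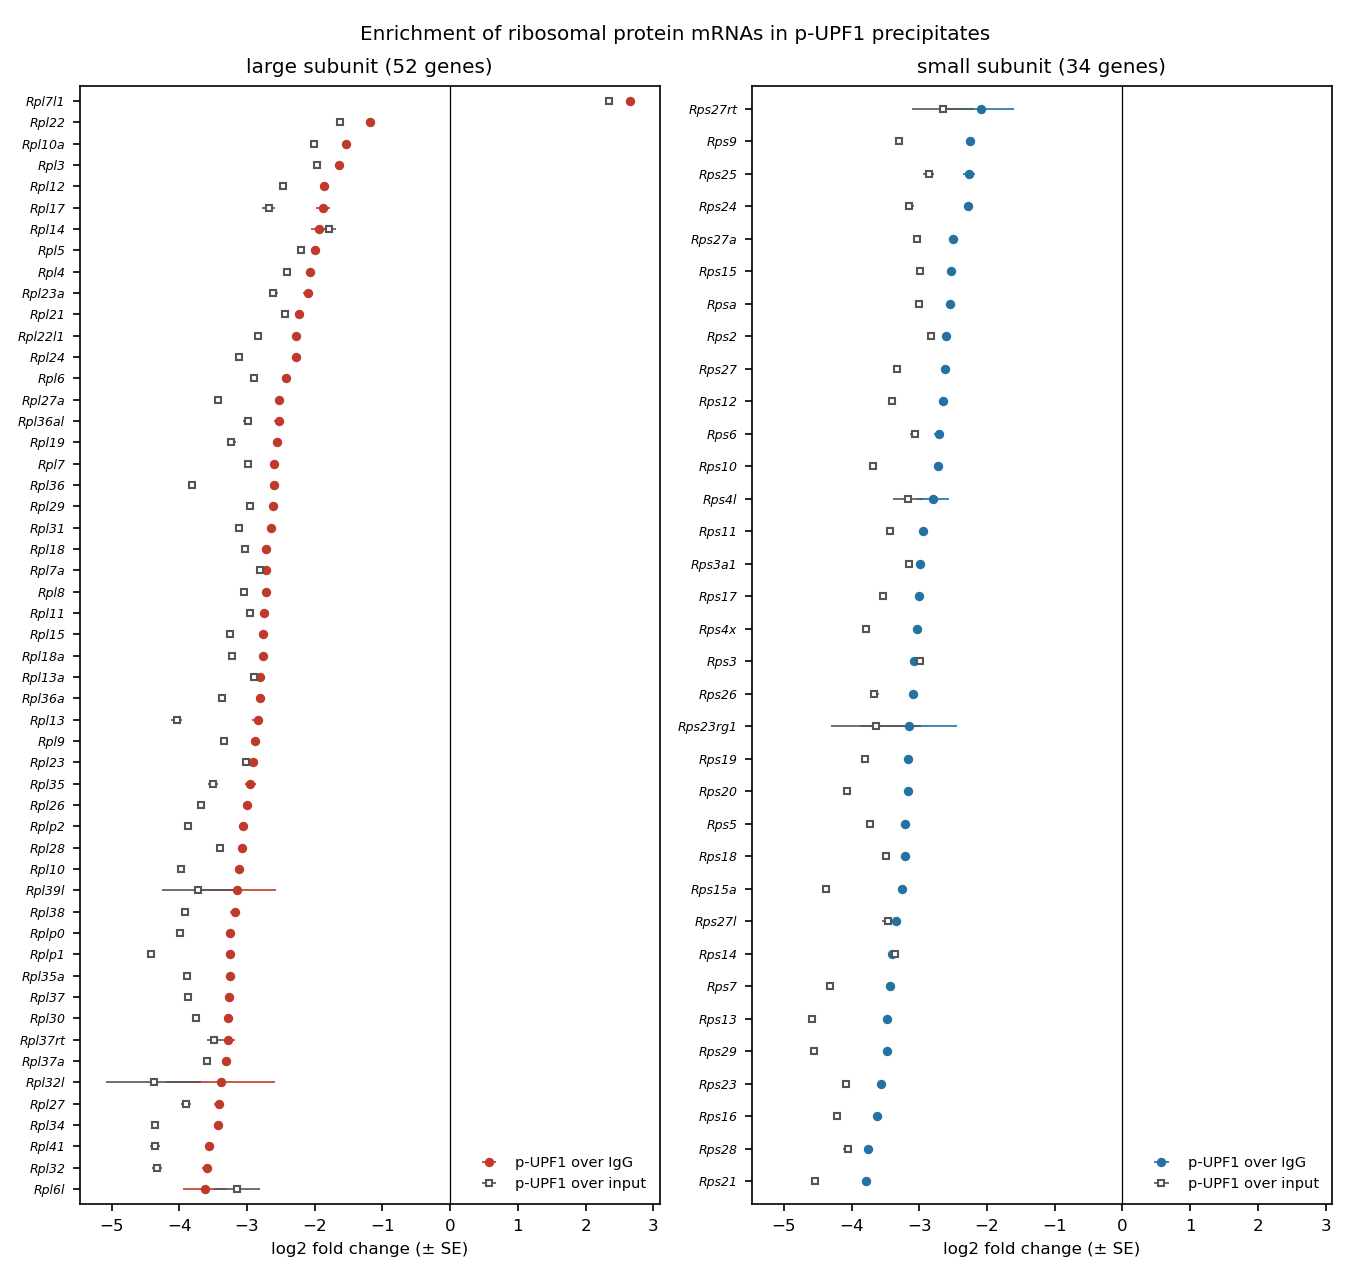
Log2 fold change (± SE) of 86 of the 87 tested RP genes for p-UPF1 over IgG (filled circles) and over input (open squares), with large subunit genes at left and small subunit genes at right, each ordered by the value over IgG. All genes shown but Rpl7l1 lie left of 0 on the TMM scale (on a scale of equal mitochondrially encoded mRNA 84 of the 87, and 99.4% of tested genes, passed the test as higher over IgG), and the next highest gene, Rpl22, stands at -1.18 over IgG.

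The exception, Rpl7l1, encodes a divergent relative of the large subunit protein Rpl7, whose yeast relative Rlp7 takes part in assembly of the large subunit. The gene lies on the minus strand of chromosome 17 from 46773907 to 46782656 (GRCm38) and has 7 exons. Rpl7l1 mRNA stood at 154, 156 and 157 CPM in input A, B and C. It stood at 125, 131 and 119 CPM with IgG and at 796, 783 and 790 CPM with p-UPF1. The p-UPF1 libraries lay above all others, and IgG below input. The log2 fold change was 2.66 ± 0.04 over IgG (adjusted P = 9.14e-18) and 2.34 ± 0.04 over input (adjusted P = 1.64e-17, SE, edgeR's quasi-likelihood test). Rpl7l1 took 0.217% of RP counts in input, 0.243% with IgG and 8.75% with p-UPF1.

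Its parent Rpl7, a core protein of the large subunit, went the other way on the same scale. Rpl7 mRNA stood at 1622, 1620 and 1594 CPM in input, at 1227, 1266 and 1209 CPM with IgG and at 207, 206 and 197 CPM with p-UPF1. Its log2 fold change was -2.60 ± 0.04 over IgG and -2.99 ± 0.04 over input (SE, adjusted P = 3.72e-18 and 6.76e-19 by edgeR's quasi-likelihood test). Per kilobase of mature length, Rpl7l1 mRNA had a level of 59.7 CPM in input against 1726 CPM for Rpl7, and one of 303 CPM with p-UPF1 against 218 CPM. The coding sequences of the pair were 62.6% identical, and their longest identical run was 10 bases. Rpl7l1 mRNA is also longer, with a mature length of 2606 nt and a 3′ UTR of 1841 nt, against 934 nt and 66 nt for Rpl7.

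The other tested copies were lower in p-UPF1 than in IgG on the TMM scale, and so were their tested parents. Rpl22 and Rpl22l1 encode related large subunit proteins that bind RNA. Rpl22 mRNA stood at 651, 660 and 634 CPM in input, at 483, 482 and 458 CPM with IgG and at 207, 210 and 211 CPM with p-UPF1. The groups did not overlap, and the log2 fold change of -1.18 ± 0.04 over IgG was the smallest fall among RP genes (adjusted P = 2.39e-14, SE, edgeR's quasi-likelihood test). Rpl22l1 mRNA stood at 189 to 199 CPM in input, 131 CPM in each IgG library and 24.8 to 28.8 CPM with p-UPF1, with a log2 fold change of -2.27 over IgG. Rpl22 has an annotated 3′ UTR of 1658 nt and Rpl22l1 one of 93 nt, and their coding sequences were 70.2% identical.

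Rps27 and Rps27l encode small subunit proteins, of which Rps27l is known as a target of p53. Rps27l mRNA stood at 98.3, 100.2 and 96.8 CPM in input, at 103, 87.5 and 83.0 CPM with IgG and at 9.31, 9.21 and 8.29 CPM with p-UPF1. Its input and IgG libraries overlapped, and only p-UPF1 stood apart. Rps27 mRNA fell in steps, with means of 528 CPM in input, 323 CPM with IgG and 52.6 CPM with p-UPF1. The log2 fold change over IgG was -3.35 ± 0.09 for Rps27l and -2.62 ± 0.04 for Rps27 (SE). Rps27rt has a coding sequence identical to that of Rps27 over 252 bases, so its counts are uncertain. Rpl36a and Rpl36al, large subunit proteins with 87.7% identical coding sequences, had log2 fold changes of -2.81 and -2.53 over IgG. Rps4x and Rpl10, parents of Rps4l and Rpl10l, stood at -3.03 and -3.12. Rpl39l stood at 1.09, 1.51 and 1.12 CPM in input, too few counts to describe.

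**Figure D3:**
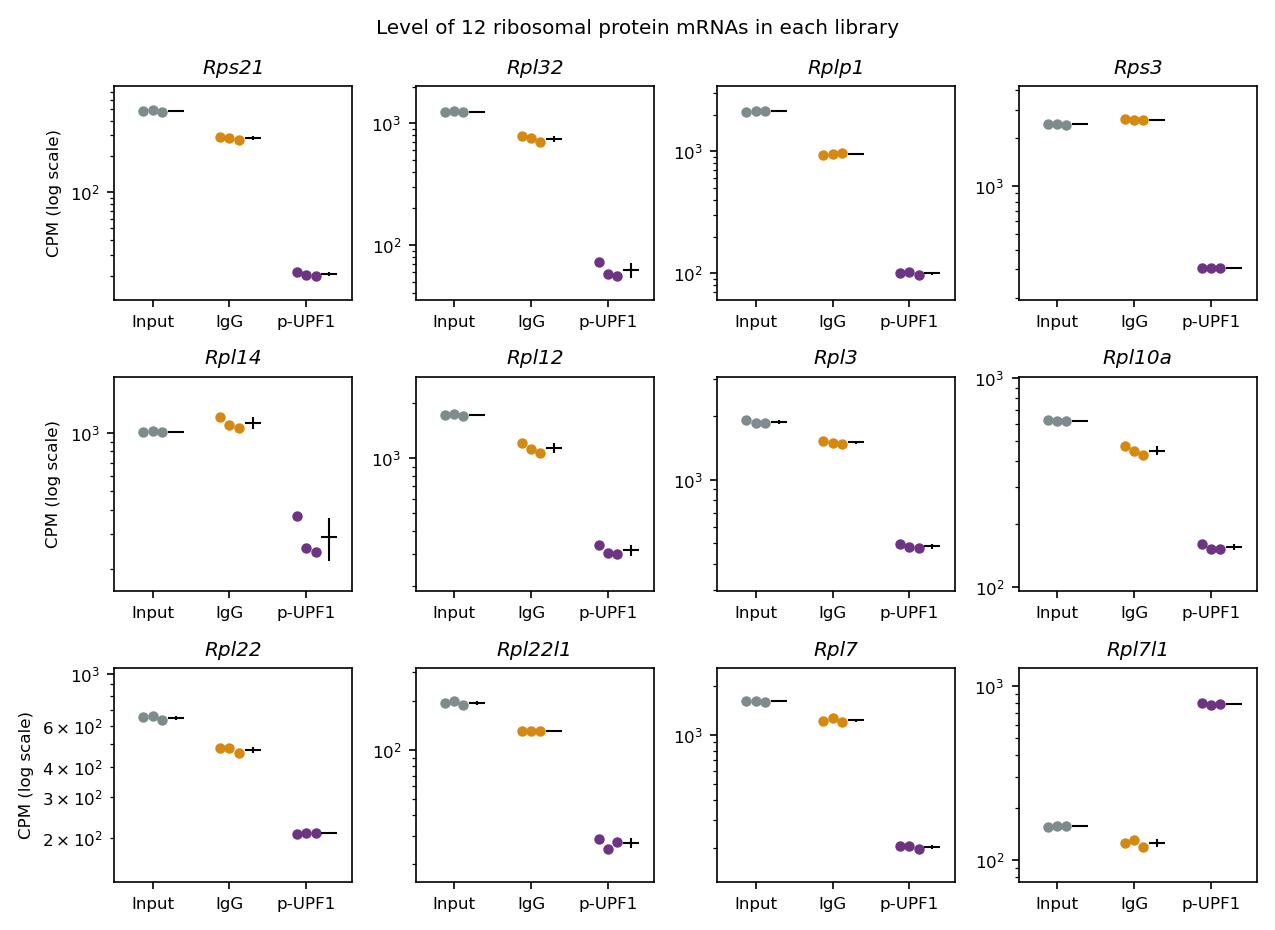
TMM-normalised level (CPM, log axis, a range of its own in each panel) of 12 RP mRNAs in the 9 libraries, with points for libraries A, B and C in order and a bar with SD for the mean of each group (n = 3). In 11 panels p-UPF1 lies below both other groups, and in that of Rpl7l1 it lies above them, on the TMM scale (on a scale of equal mitochondrially encoded mRNA these 11 lie above IgG as well). IgG lies above input for Rps3 and Rpl14.

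The stalk of the large subunit, formed by Rplp0, Rplp1 and Rplp2, recruits translation factors to the ribosome. Rplp1 mRNA, the highest of all tested RP mRNAs in input per kilobase of mature length (4542 CPM per kb), stood at 2103, 2142 and 2133 CPM in input. It stood at 933, 946 and 965 CPM with IgG and at 100.4, 103 and 96.1 CPM with p-UPF1. The 3 groups were far apart, and Rplp1 was 21.3-fold lower in p-UPF1 than in input on this scale. The log2 fold changes over IgG of Rplp0, Rplp1 and Rplp2 were -3.25, -3.25 and -3.06, each with an SE of 0.04 to 0.05, all below the median of the large subunit. Rpl12, which lies at the base of the stalk, was retained more, with 1729, 1739 and 1705 CPM in input, 1207, 1129 and 1073 CPM with IgG and 336, 303 and 299 CPM with p-UPF1, and a log2 fold change of -1.86 ± 0.05 over IgG.

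Rpl10a forms the mobile stalk near the site where spent tRNAs leave, and Rpl3 reaches to the peptidyl transferase centre. Rpl10a mRNA stood at 633, 621 and 624 CPM in input, at 473, 446 and 429 CPM with IgG and at 161, 152 and 152 CPM with p-UPF1. Rpl3 mRNA stood at 1919, 1859 and 1863 CPM in input, at 1533, 1496 and 1482 CPM with IgG and at 495, 482 and 473 CPM with p-UPF1. In both the groups were ordered input, IgG, p-UPF1 without overlap. Their log2 fold changes over IgG were -1.54 ± 0.04 and -1.64 ± 0.04, the highest of the large subunit after Rpl7l1 and Rpl22 (adjusted P = 5.32e-15 and 1.98e-16 by edgeR's quasi-likelihood test). At the other end of the large subunit, among genes at 10 CPM or more, were Rpl32, Rpl41, Rpl34 and Rpl27, from -3.59 to -3.42. Rpl32 mRNA fell from 1241, 1264 and 1235 CPM in input to 780, 756 and 704 CPM with IgG and 72.0, 58.3 and 56.1 CPM with p-UPF1. Rpl41, with a coding sequence of 78 nt the shortest RP, fell by 3.56 over IgG on the log2 scale.

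In the small subunit the lowest values over IgG were those of Rps21, Rps28, Rps16 and Rps23, of which Rps23 lies at the decoding site. Rps21 mRNA stood at 479, 487 and 468 CPM in input, at 293, 288 and 274 CPM with IgG and at 21.4, 20.5 and 19.9 CPM with p-UPF1. Rps28 mRNA stood at 383, 394 and 387 CPM in input, at 327, 319 and 293 CPM with IgG and at 25.4, 22.3 and 22.0 CPM with p-UPF1. The groups did not overlap for either. Rps21 was 13.8-fold and Rps28 13.5-fold lower in p-UPF1 than in IgG, with log2 fold changes of -3.79 ± 0.05 and -3.75 ± 0.06 (SE, adjusted P = 2.27e-18 and 9.32e-18, edgeR's quasi-likelihood test). Rps16 followed with -3.63 and Rps23 with -3.57. Among the highest values of the small subunit at 10 CPM or more were those of Rps9, Rps25 and Rps24, from -2.24 to -2.28, which differed from one another by less than their SE. Rpsa, also known as the laminin receptor, and Rps27a, made as a fusion with ubiquitin, stood at -2.54 and -2.49.

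The IgG precipitate recovered RP mRNAs less than other mRNAs as well, but by far less. Of the 87 tested genes, 74 were lower in IgG than in input at an adjusted P under 0.05, where 34.7% of tested genes were lower, and 1 was higher, where the background was 18.2%. A log2 fold change of -1 or less was reached by 7, where the background was 2.16%. The median was -0.51, against -0.10 over all tested genes. All IgG libraries lay below all input libraries for 79 RP genes, against 38.5% of tested genes. Both steps were seen together, with p-UPF1 below IgG and IgG below input in all libraries, for 78 RP genes and 20.8% of tested genes. With library size alone in place of TMM, 47.4% in place of 65.6% of all called genes were lower in IgG than in input, and the median of RP genes was -0.39. On a scale of equal mitochondrially encoded mRNA, 46 RP genes were lower and 11 higher in IgG than in input, where 8.33% of tested genes were lower and 46.6% higher. On that scale 0 reached a log2 fold change of -1 or less, where the background was 0.746%.

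The largest falls from input to IgG were those of Rpl36, Rpl13 and Rplp1. Rpl36 mRNA stood at 483, 502 and 489 CPM in input and at 227, 211 and 199 CPM in IgG, and its log2 fold change was -1.21 ± 0.05 (SE). Rpl13 fell by 1.19 on the log2 scale and Rplp1 by 1.17. The gene that was higher was Rps3, which lies at the entry of the mRNA channel, with 2442, 2451 and 2431 CPM in input against 2649, 2578 and 2583 CPM in IgG. Its groups did not overlap, but the log2 fold change was 0.09 ± 0.03 (adjusted P = 0.0202, SE, edgeR's quasi-likelihood test) and the call was lost without any 1 of the input libraries, at adjusted P = 0.0806 to 0.114. Rpl14 and Rps14 stood at 0.15 ± 0.11 and 0.05 ± 0.03 and did not pass (adjusted P = 0.263 and 0.269). From IgG to p-UPF1 these 3 mRNAs fell on the TMM scale, with log2 fold changes of -3.08 for Rps3, -3.40 for Rps14 and -1.94 for Rpl14.

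Libraries of one group were not all alike for RP mRNAs. Of the 81 RP genes at 10 CPM or more, 65 (80.2%) were higher in p-UPF1 A than in both B and C, where 29.5% of tested genes at that level were, with a median excess over the mean of B and C of 0.11 on the log2 scale. In IgG A, 62 (76.5%) were higher than in B and C, against 30.9% of tested genes. Rpl14 was the widest case, at 373 CPM with p-UPF1 A and 256 and 244 CPM in B and C, 1.49-fold above the mean of the other two. Library C lay below A and B for 53 RP genes with p-UPF1 and for 58 with IgG, against 34.1% and 28.5% of tested genes at that level. In input, B was the highest library for 59, against 44.9%. The letters are not the replicate numbers of the labels, and whether 1 letter stands for 1 lysate was not given. With the letter as a block in the fit, 86 RP genes were still lower and 1 higher in p-UPF1, over IgG and over input. Of tested genes, 42.2% and 42.8% were then lower and 40.6% and 41.0% higher. Without p-UPF1 A, 86 RP genes were lower and 1 higher in p-UPF1, over IgG and over input, as with all libraries. In that fit 40.0% and 40.6% of tested genes were lower and 38.6% and 38.7% higher.

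RP mRNAs are short, and short mRNAs were recovered less among other genes too. The median mature length was 725 nt for 85 RP genes with a coding sequence and 2962 nt for 11489 other protein-coding genes, and the median 3′ UTR was 82 nt against 1015 nt. Below 500 nt, the median log2 fold change over IgG was -3.07 for 16 RP genes and -2.82 for 56 other genes. From 500 to 1000 nt it was -2.95 for 47 RP genes and -1.73 for 606 others, and from 1000 to 2000 nt -2.71 for 17 and -0.49 for 2512. The gap to other genes was thus small for the shortest mRNAs and wide above 500 nt. With 3′ UTRs under 100 nt the medians were -2.95 for 50 RP genes and -0.91 for 468 others. From 250 to 500 nt they were -3.15 for 9 RP genes and -0.55 for 1662 others. Mature lengths are those of 1 curated RefSeq mRNA per gene, and for Rps15a and Rps20 the annotated 5136 and 3446 nt are long for this family.

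Among RP genes the recovery over IgG went more with the length of the coding sequence (Spearman's rho 0.45) than with that of the 3′ UTR (rho 0.08), across 85 genes that share the same libraries and are not independent. Among 11489 other genes the order was the opposite, with rho of 0.11 and 0.35. The correlation with input level was weak among RP genes (rho 0.09). Rpl7l1 and Rpl22 hold 2 of the longest 3′ UTRs of the family, but Rps15a, with the longest at 4726 nt, stood below the median of the small subunit at -3.26.

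**Figure D4:**
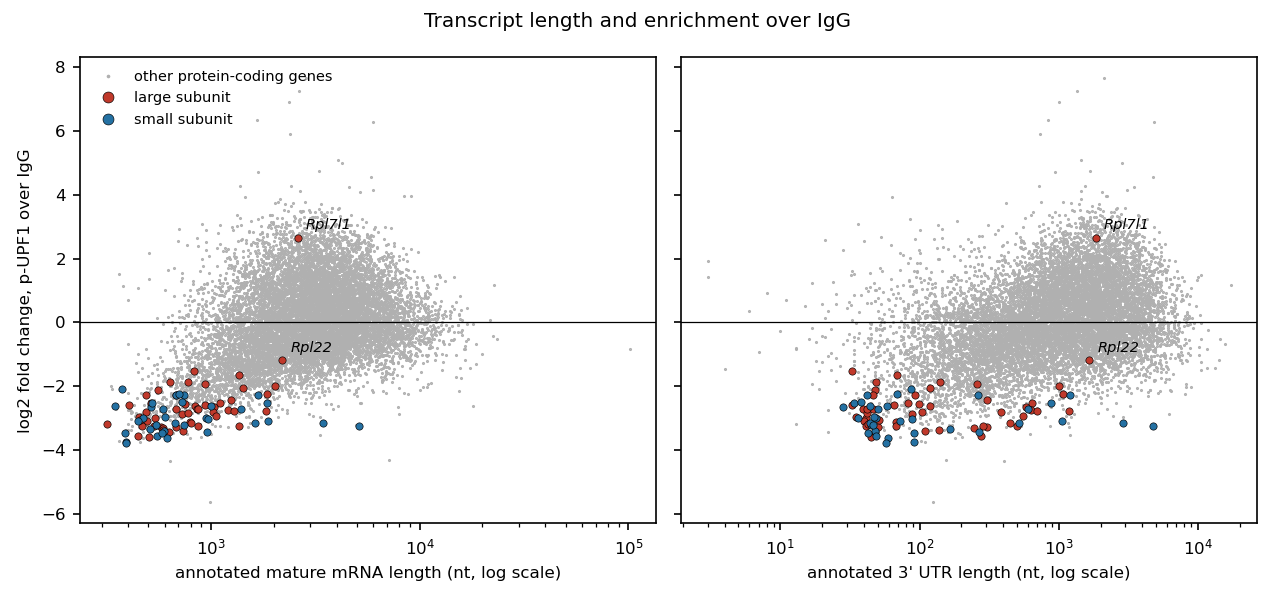
Log2 fold change of p-UPF1 over IgG against the annotated mature length (left) and 3′ UTR length (right, both log axes in nt) for large subunit genes (red), small subunit genes (blue) and other protein-coding genes (grey). On the TMM scale the RP genes lie along the lower left edge of the cloud (on a scale of equal mitochondrially encoded mRNA all points sit higher by about the same step), and Rpl7l1 at 2.66 lies above the upper quartile of 1.16 of other genes from 2000 to 4000 nt.

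RP genes are frequent hosts of small nucleolar RNAs (snoRNAs), which guide modification of ribosomal RNA and are cut from introns. A snoRNA gene lay inside 29 of the 87 tested RP genes on the same strand (33.3%), against 1.61% of tested genes. The median over IgG was -2.77 for host genes and -2.97 for the others. A transcript typed as an NMD target in GENCODE M21 was annotated for 19 of 86 RP genes (22.1%) and 27.4% of tested genes, with medians of -2.64 for the 19 and -2.95 for the rest. Rpl10a, Rpl3, Rpl12 and Rpl14, all near the top of the large subunit, were among the 19, but so was Rps27l at -3.35, while Rpl7l1 and Rpl22 were not. Counts per gene do not part such a transcript from the productive mRNA. A retained-intron transcript was annotated for 63 of 86 (73.3%) against 56.3% of tested genes.

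Neighbouring gene lists chosen by function were set beside the RP genes. Fau, which encodes small subunit protein S30 as a fusion, and Rack1, a small subunit scaffold, carry other names and were lower in p-UPF1 than in IgG, with log2 fold changes of -2.06 and -2.55. Of 20 other mRNAs known to carry a TOP tract, mostly translation factors, all 20 were lower at an adjusted P under 0.05, with a median of -2.24. They ran from Tpt1, the translationally controlled tumour protein, at -3.59 to the histone chaperone Nap1l1 at -0.13. Of 42 ribosome biogenesis factors, 30 were lower and 8 higher, with a median of -0.72, from Ebna1bp2 at -2.23 to Tsr1, a factor of small subunit assembly, at 1.74. Of 77 tested mitochondrial RP genes, 65 were lower and 10 higher, with a median of -1.39, from Mrps28 at -3.01 to Mrpl49 at 2.76. The background shares of 42.2% lower and 40.4% higher apply to each list. The RP genes had the lowest median of these lists.

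**Figure D5:**
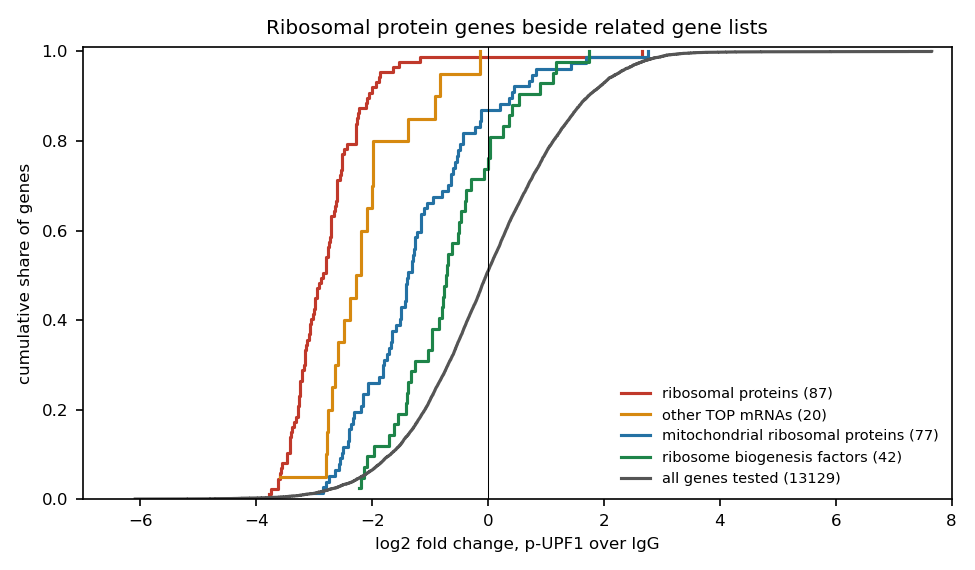
Cumulative share of genes against the log2 fold change of p-UPF1 over IgG for the 87 tested RP genes, 20 other TOP mRNAs, 77 mitochondrial RP genes, 42 ribosome biogenesis factors and all 13129 tested genes. Median values stand at -2.85, -2.24, -1.39, -0.72 and -0.03 on the TMM scale (a scale of equal mitochondrially encoded mRNA moves that of all genes to 4.66 and that of RP genes to 1.85), and the RP curve rises steeply apart from Rpl7l1.

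RP genes have many processed copies in the genome, and how reads that fit several places were counted was not given. The 34 named RP pseudogenes in the table, left out above, held counts equal to 0.114% of the RP counts and 9 of them had none. Levels of genes with near-identical copies are therefore uncertain. Of the tested RP genes, 19 overlap a gene on the other strand, among them Rpl22, Rpl32, Rps25, Rps27a and Rpsa. If strand was not used in counting, reads of such a neighbour cannot be told apart from theirs.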

How the data were processed

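RIP-seq of activated splenic B cells was analysed in 9 libraries (3 input, 3 IgG and 3 p-UPF1) that were assigned to groups by their labels. The deposited table holds unscaled counts of reads for each NCBI Gene identifier, which the authors made with cutadapt, HISAT2 and featureCounts on mm10 (submitters' processing notes, no versions). The kit was directional, but the RNA-seq methods name unstranded mapping, and strand and multi-mapping settings for RIP-seq were not given in the sources used here. Columns carry letters (A to C) that match no replicate number of the labels, so the fit had no block. Across 8992 genes, which are not independent, deviations of same-letter libraries from their group means correlated at r of 0.104 to 0.202 for p-UPF1 with IgG or input, and at 0.153, 0.118 and 0.0674 for IgG with input. The letter as a block was an alternative. Symbols and positions came from the RefSeq annotation of GRCm38.p6 (25275 of 27179 identifiers), and transcript types and coding sequences for identity from GENCODE M21.

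Genes were kept with filterByExpr (minimum count 10, minimum total 15), which left 13129 genes with 99.9% of counts. TMM scaling and edgeR's quasi-likelihood test (edgeR 4.0.16, R 4.3.3, two-sided, 6 residual degrees of freedom) were used on 1 fit of all libraries, with Benjamini-Hochberg adjustment over all tested genes, a prior count of 0.125 and a threshold of 0.05. The SE was derived from the test statistic. CPM are TMM-normalised means ± SD (n = 3). The fit was tested on simulated data. Counts hold no molecular identifiers. Alternatives were other scalings, filters, tools and left-out libraries. Members and lists were chosen with earlier results of these data known. Named genes were the copies and their parents, the stalk proteins, Rpsa, Rps27a, Rpl10a and Rpl12, the 4 lowest and 4 highest of each subunit over IgG and the 3 lowest and 3 highest of IgG over input at 10 CPM or more, each member that was higher in any contrast, and the lowest and highest of each list. Rpl15, Rpl35, Rps10, Rps6, Rps18, Rps15a and Rps20 were named after their sequence or length was seen. Some items within the rule are not reported here. Sequences and tracts came from the RefSeq start table, and mature length from the curated mRNA of lowest accession.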

Additional observations from a re-analysis of the deposited data

How the results depend on the processing

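Of 22 alternatives, 21 kept the direction of all 57 fold changes followed, and changed the side of the threshold only for Rps3, Rps14 and Rpl14 in IgG over input. Over these 21, RP genes lower in p-UPF1 numbered 83 to 86 over IgG and 84 to 86 over input, and 68 to 78 were lower in IgG than in input. In the main fit 42.2%, 42.6% and 34.7% of tested genes were lower, in the same order. Over the 21, the share of all called genes that were lower ranged from 49.5% to 57.0% over IgG and from 46.9% to 53.5% over input. In IgG over input it ranged from 47.4% to 68.3%. RP genes higher in IgG than in input numbered 3 with library size alone, with an input library as TMM reference, without the low-count filter and with only the 2 groups compared. They numbered 2 with upper-quartile factors, an IgG library as reference and DESeq2. Without 1 library they numbered 0 to 2 (0 without any 1 input library, 2 without p-UPF1 A). In the main fit 1 was higher, where 18.2% of tested genes were. Of all called genes in this contrast, 65.6% were lower in the main fit. That share was 47.4% to 51.5% in the settings with 3. It was 49.8% to 61.1% with upper-quartile factors, an IgG reference or DESeq2. Without 1 input library it was 67.1% to 68.3%, and without p-UPF1 A 65.7%. With library size alone, 4 RP genes in place of 7 reached a log2 fold change of -1 or less in IgG over input. In the main fit 2.16% of tested genes reached it.

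Library size alone moved the median over IgG of all tested genes from -0.03 to -0.19 and that of RP genes from -2.85 to -3.01.

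Equal mitochondrially encoded mRNA turned the p-UPF1 contrasts. Then 0 RP genes were lower and 84 higher over IgG and over input, where 99.4% of tested genes were higher in both, and 0 were lower past the fold minimum in any contrast. In IgG over input 46 were lower and 11 higher, where 8.33% and 46.6% of tested genes were. Its log2 fold changes over IgG were Rps21 0.91, Rps28 0.94, Rps16 1.07, Rpl32 1.10, Rps23 1.13, Rpl41 1.13, Rpl34 1.27, Rpl27 1.28, Rps14 1.29, Rps27l 1.34, Rplp1 1.44, Rplp0 1.45, Rpl39l 1.45, Rpl10 1.57, Rps3 1.61, Rplp2 1.63, Rps4x 1.67, Rpl13 1.85, Rps4l 1.88, Rpl36a 1.89, Rps27 2.08, Rpl36 2.09, Rpl7 2.09, Rpsa 2.16, Rpl36al 2.16, Rps27a 2.20, Rps24 2.41, Rpl22l1 2.42, Rps25 2.42, Rps9 2.45, Rpl14 2.74, Rpl12 2.83, Rpl3 3.06, Rpl10a 3.16 and Rpl22 3.52. Over input they were Rps21 0.50, Rplp1 0.63, Rpl32 0.71, Rps28 0.98, Rps3 2.05, Rpl7 2.05, Rpl12 2.57, Rpl10a 3.02, Rpl3 3.08, Rpl14 3.24 and Rpl22 3.41. The change of Rpl7l1 in IgG over input turned to 0.027. Relative to the median of all tested genes, the median of RP genes was -3.32 over input and -0.41 in IgG over input, as under TMM.

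A replicate block by column letter, chosen after seeing the data because the columns carry letters and not the labels' replicate numbers, changed no call of the genes followed. It gave 86 RP genes lower and 1 higher over IgG and over input, and 76 lower and 1 higher in IgG than in input. Of tested genes, 42.2% and 42.8% were lower and 40.6% and 41.0% higher over IgG and over input. In IgG over input, 35.4% of tested genes were lower and 18.7% higher. Depth limited the 6 copies under 10 CPM.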
